A study of Mus musculus with 98 samples.

Results

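Genomic imprinting marks one parental copy of a gene with DNA methylation in the egg or sperm, so that in the embryo the gene is read mainly from the other copy. The methylation is kept through the wave of demethylation after fertilisation by zinc finger proteins, Zfp57 and Zfp445, which bind the marked control regions and bring in the corepressor Trim28. Many imprinted genes set the growth of the embryo and the placenta, and the primitive endoderm, the epiblast and the trophoblast differ in which of them they use. The genes described here are 42 imprinted genes and imprint regulators, chosen by name for that role, and their rows were taken from every table of gene counts of the series. Of the 42, 35 had a row in each of the 9 count tables of 21812 gene symbols. The other 7, the long noncoding RNAs H19, Airn, Meg3, Rian, Mirg, Kcnq1ot1 and Peg13, were not analysed here. The counts add up both parental copies of a gene, so every value below is a level of RNA and none is a measure of imprinting.

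The study followed mouse TBLC, stem cells known as totipotent blastomere-like cells, and their exit towards primitive endoderm. Every group had 2 libraries. PrE-T were the CD140-positive and EPI-T the CD140-negative cells sorted from TBLC kept for 3 days in a medium labelled SLM, and TBLC were grown in 2MYCP medium. Unsorted cells after 3 days in SLM are called diffTBLC. For RNA stability, cells were given actinomycin D, which blocks transcription, for 0, 1, 2 or 3 h. These courses covered diffTBLC and TBLC, TBLC_PlaB- (8 h in SLM) and TBLC_Ctrl (2MYCP), and diffTBLC with siVirma and siNC1 or labelled siIgf2bp3 and siNC2. The 0 h libraries carry the actinomycin D label as well. Further diffTBLC libraries had siVirma, siMettl3 or the control siNC with no actinomycin D, or were immunoprecipitates (IP) and inputs of RNA bound to Igf2bp3 or to Ythdf2. Virma and Mettl3 belong to the complex that writes N6-methyladenosine (m6A) into RNA, and Igf2bp3 and Ythdf2 are proteins that bind it.

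Library totals lay between 20302848 and 29471283 counts in the sorted table, 11433895 and 23145666 in the actinomycin D tables, 3968442 and 4750020 in the siVirma and siMettl3 table, and 2483808 and 12666298 in the IP and input tables. Levels are given as CPM, counts scaled to one common library total after TMM normalisation, the first replicate first, and can be compared between groups of one table only. Of the 35 genes, 30 to 33 passed the filter on low counts in a given table, and Rasgrf1 passed it in none. The sort labels were checked on 18 primitive endoderm markers. In PrE-T all 18 were above EPI-T, with a summed level of 31970 to 32050 CPM in PrE-T, 876.7 to 904.5 CPM in EPI-T and 3023 to 3121 CPM in TBLC. Markers of fibroblasts and feeder cells (18 genes) summed to 589.4 to 601.8 CPM in PrE-T, 679.7 to 683.1 CPM in EPI-T and 3006 to 3079 CPM in TBLC. All 18 were lower in PrE-T than in TBLC, 17 were lower in EPI-T than in TBLC, and 14 were higher and 2 lower in PrE-T than in EPI-T, with at most 1 of them at 0 in a library. The 2 lower ones were Fn1 (log2 difference -0.98) and Mfap5 (-1.79). The lower sum in PrE-T than in EPI-T thus rests on these 2 and goes against most of the markers. The part of the 18 markers in the differences between the states given below was not tested. In such bulk libraries, fewer cells of a type and less RNA per cell cannot be told apart.

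The control regions that Zfp57 protects are known to carry the hexamer TGCCGC with a methylated CpG, so the promoters of the genes were searched for it on both strands (GCGGCA where it lies on the other strand, counting matches that overlap). RefSeq promoters of build GRCm38.p6, 250 bases before to 50 bases after a start, were at hand for 35 of the 42 genes (52 promoters). These are not the same 35 genes as those with a row of counts. They include Airn, Meg3, Rian, Mirg and Kcnq1ot1, which have no counts, and lack Cdkn1c, Peg10, Sgce, Impact and Trappc9, which have counts. The hexamer was in 15 of these 52 promoters, 28.8%, against 3813 of all 32851 promoters, 11.6%. The promoters of the 42 genes had a median of 15.5 CpG and all promoters a median of 7.0. A match describes the letters and is not a binding site, and the absence of the letters from a 300-base window says nothing of the protein. The 5 promoters below are examples from genes that were lower in PrE-T than in EPI-T or TBLC. They are not those of the 5 largest differences. Zim1, Nnat, Grb10, Snrpn, Copg2, Commd1 and Trim28, also lower in PrE-T than in EPI-T, have the hexamer and are not shown. Capitals mark the hexamer, and Phlda2, which has none, is shown beside 4 genes that have it.
Phlda2 (chr7:143502475-143502774, minus strand): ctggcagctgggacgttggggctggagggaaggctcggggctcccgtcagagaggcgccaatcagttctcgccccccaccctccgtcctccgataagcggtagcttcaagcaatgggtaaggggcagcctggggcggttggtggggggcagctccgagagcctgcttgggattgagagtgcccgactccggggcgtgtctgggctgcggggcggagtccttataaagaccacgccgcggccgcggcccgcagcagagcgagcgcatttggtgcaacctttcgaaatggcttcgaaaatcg
Plagl1 (chr10:13090582-13090881, plus strand): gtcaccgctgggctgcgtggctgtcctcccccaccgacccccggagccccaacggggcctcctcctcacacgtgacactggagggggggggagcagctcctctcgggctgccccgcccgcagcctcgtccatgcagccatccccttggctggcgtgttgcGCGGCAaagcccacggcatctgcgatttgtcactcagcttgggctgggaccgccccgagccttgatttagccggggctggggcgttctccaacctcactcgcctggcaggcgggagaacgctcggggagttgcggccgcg
Zdbf2 (chr1:63200108-63200407, plus strand): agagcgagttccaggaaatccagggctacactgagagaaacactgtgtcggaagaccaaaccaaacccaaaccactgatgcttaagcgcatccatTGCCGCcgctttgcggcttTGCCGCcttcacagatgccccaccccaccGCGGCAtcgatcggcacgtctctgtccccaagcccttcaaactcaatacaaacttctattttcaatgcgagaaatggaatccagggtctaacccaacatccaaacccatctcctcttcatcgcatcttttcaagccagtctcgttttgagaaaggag
Mest (chr6:30737800-30738099, plus strand): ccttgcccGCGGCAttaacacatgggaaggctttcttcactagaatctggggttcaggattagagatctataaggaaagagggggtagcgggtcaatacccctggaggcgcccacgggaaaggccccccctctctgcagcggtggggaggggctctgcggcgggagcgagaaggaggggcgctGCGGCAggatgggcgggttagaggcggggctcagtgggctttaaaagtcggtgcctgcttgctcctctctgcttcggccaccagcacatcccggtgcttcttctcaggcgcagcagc
Nap1l5 (chr6:58907077-58907376, minus strand): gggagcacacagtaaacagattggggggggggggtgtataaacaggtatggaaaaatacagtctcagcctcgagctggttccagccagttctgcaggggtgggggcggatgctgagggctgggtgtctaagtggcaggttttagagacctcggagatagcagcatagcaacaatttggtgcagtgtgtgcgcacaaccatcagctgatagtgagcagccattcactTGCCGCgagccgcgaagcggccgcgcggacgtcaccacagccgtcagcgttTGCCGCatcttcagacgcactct
Zdbf2 has 3 hexamers in the promoter shown, Mest and Nap1l5 have 2 each and Plagl1 has 1. Other promoters of Zdbf2 (chr1:63273019-63273318) and Mest (chr6:30733256-30733555), not shown, have 0. Among the genes with the hexamer in any promoter, 13 were tested between PrE-T and EPI-T, of which 2 were higher and 10 lower. Among those with promoters but no hexamer, 15 were tested, of which 5 were higher and 8 lower. Cdkn1c and Peg10 (lower in PrE-T), Impact (higher), and Sgce and Trappc9 (not called) had no promoter at hand and are in neither count. Of all 14373 genes tested, 35.9% were higher and 33.6% lower, and the share for all genes with the hexamer is not given here. The genes with the hexamer include the regulator Trim28, and those without it Zfp57 and Zfp445. These are counts with no test.

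The PrE-T to EPI-T comparison asks how the 2 lineages formed in SLM differ. Of 33 genes tested, 20 were lower in PrE-T, 8 were higher and 5 did not pass the threshold (edgeR's quasi-likelihood test, Benjamini-Hochberg adjusted p under 0.05). The share called, 28 of 33, stood beside 69.5% of all 14373 genes tested (35.9% higher and 33.6% lower), so that a call in itself was common. Of the 30 imprinted genes among them 17 were lower and 8 higher, and all 3 regulators were lower. In a further list of imprinted genes, described below, 10 of 32 tested were higher and 12 lower. The median log2 difference was -0.48 over the 33 genes and 0.03 over all genes. Past 2-fold, 3 were higher and 14 lower, beside 34.6% of all genes called at that size, 18.5% higher and 16.1% lower. The lowest in PrE-T were 2 maternally expressed growth restrainers and a retrotransposon-derived gene of the placenta, Phlda2, Cdkn1c and Peg10, while Igf2, Gnas and Tssc4 were more than 2-fold higher.

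**Figure D1:**
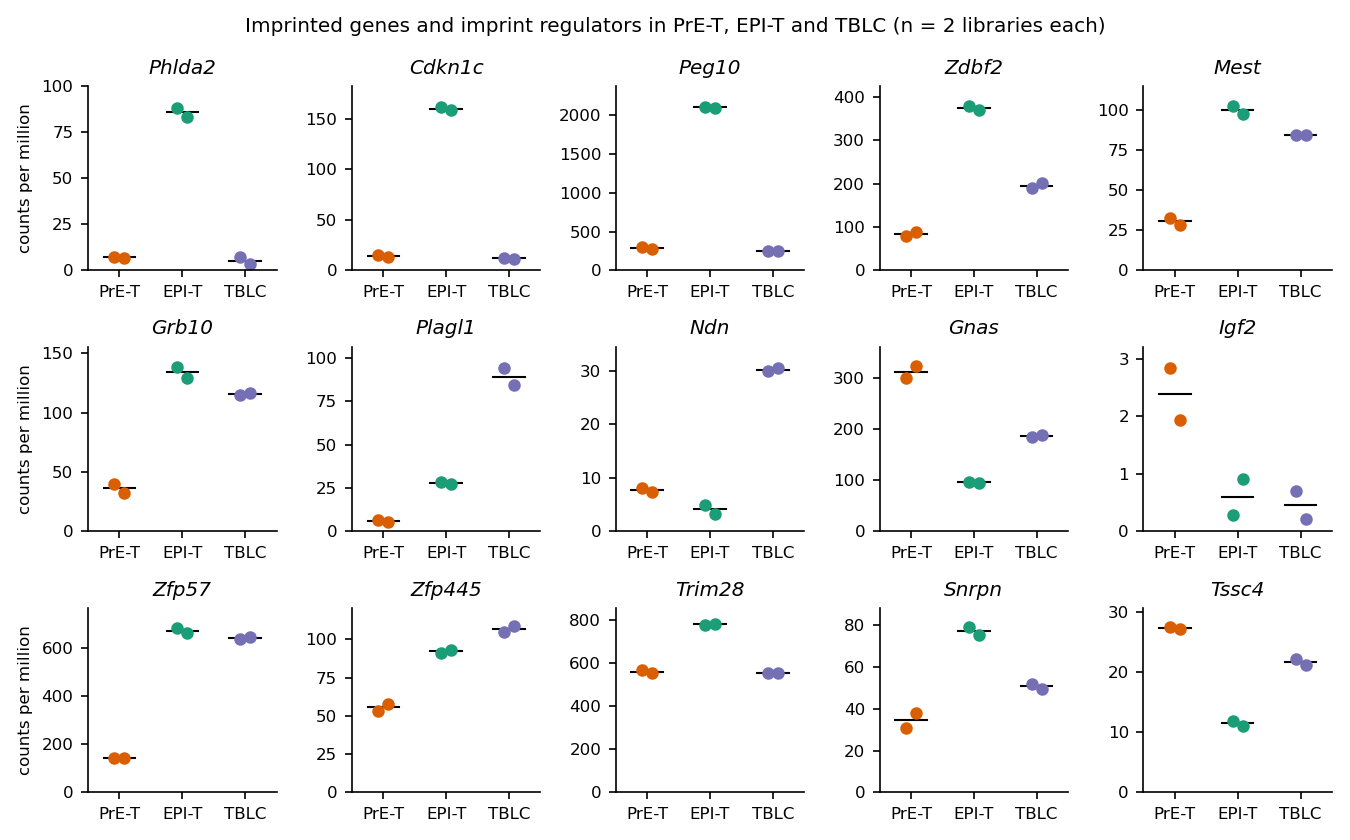
CPM of 15 genes in PrE-T, EPI-T and TBLC (points are the 2 libraries of a group, bars their mean, linear axes from 0). Phlda2, Cdkn1c and Peg10 are high in EPI-T alone, Zfp57 is low in PrE-T alone (143 and 142 CPM), and Plagl1 and Ndn are highest in TBLC.

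Phlda2, which restrains placental growth, had 7.53 and 6.53 CPM in PrE-T, 88.5 and 83.5 CPM in EPI-T and 7.47 and 3.31 CPM in TBLC. The PrE-T values overlapped with those of TBLC and lay far under those of EPI-T, with a log2 difference from EPI-T of -3.61 ± 0.15 (SE, adjusted p = 1.34e-14 by edgeR). Cdkn1c, which encodes the cyclin-dependent kinase inhibitor p57, had 15.1 and 13.6 CPM in PrE-T, 161 and 158 CPM in EPI-T and 12.4 and 11.7 CPM in TBLC. The 2 EPI-T libraries stood apart from the other 4, and PrE-T differed from EPI-T by -3.47 ± 0.091 on the log2 scale (adjusted p = 1.96e-22, edgeR). The PrE-T values of both genes were close to those of TBLC, with log2 differences of 0.36 ± 0.26 for Phlda2 (adjusted p = 0.217, edgeR) and 0.26 ± 0.13 for Cdkn1c (adjusted p = 0.0877, edgeR), neither past the threshold. Grb10, an adaptor that dampens growth factor signalling, had 40.0 and 32.4 CPM in PrE-T, 139 and 129.7 CPM in EPI-T and 115 and 116 CPM in TBLC. For this gene the PrE-T libraries were the ones apart, with log2 differences of -1.89 ± 0.084 from EPI-T and -1.67 ± 0.084 from TBLC (adjusted p = 2.49e-17 and 6.08e-16, edgeR). Igf2r, the receptor that clears Igf2 from the cell surface, had 156 and 162 CPM in PrE-T, 151 and 157 CPM in EPI-T and 275 and 283 CPM in TBLC. PrE-T and EPI-T overlapped (log2 difference 0.05 ± 0.058, adjusted p = 0.456, edgeR) and both were lower than TBLC, with log2 differences of -0.81 ± 0.056 for PrE-T and -0.86 ± 0.057 for EPI-T.

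Peg10, whose protein derives from a retrotransposon and is needed for the placenta, had 296 and 278 CPM in PrE-T, 2105 and 2091 CPM in EPI-T and 246 and 251 CPM in TBLC. The log2 difference was -2.87 ± 0.049 between PrE-T and EPI-T and 0.21 ± 0.049 between PrE-T and TBLC (adjusted p = 1.24e-26 and 0.000498, edgeR). EPI-T stood far above the other 4 libraries, which differed little from each other. Sgce, its divergent neighbour, was low in EPI-T, with 4.59 and 3.51 CPM in PrE-T, 2.99 and 2.69 CPM in EPI-T and 5.98 and 6.76 CPM in TBLC. Sgce was lower in both sorted states than in TBLC (-0.64 ± 0.24 for PrE-T and -1.15 ± 0.27 for EPI-T), and PrE-T and EPI-T did not differ past the threshold (adjusted p = 0.129, edgeR). Ascl2, a transcription factor of the trophoblast lineage, was at 0.373 and 0.702 CPM in PrE-T, 1.64 and 1.63 CPM in EPI-T and 0.782 and 1.92 CPM in TBLC. It was called lower in PrE-T than in EPI-T (adjusted p = 0.0168, edgeR), a call that was lost without either EPI-T library or without the first PrE-T library (adjusted p = 0.0687, 0.0536 and 0.146, edgeR). The 12 trophoblast markers summed to 541.6 to 588.9 CPM in PrE-T, 45.5 to 56.5 CPM in EPI-T and 152 to 159.1 CPM in TBLC, with 2 or 3 of them at 0 in a library. Of the 10 tested, 8 were higher and 0 lower in PrE-T against EPI-T, and against TBLC 6 were higher and 2 lower. The sum in PrE-T was mostly that of the keratins Krt8 (361 and 386 CPM) and Krt18 (141 and 166 CPM), which other epithelia also make, while Gata3 and Krt7 were the 2 lower than in TBLC (-0.78 ± 0.34 and -1.11 ± 0.40). The part of these markers in the values of Phlda2, Peg10 and Ascl2 was not tested.

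The paternally expressed growth genes divided by state. Igf2, the growth factor itself, was close to 0 outside PrE-T, with 2.83 and 1.94 CPM in PrE-T, 0.287 and 0.911 CPM in EPI-T and 0.704 and 0.218 CPM in TBLC. Both PrE-T libraries were above the other 4, and the gene was called higher in PrE-T than it was in EPI-T (log2 difference 2.06 ± 0.54, adjusted p = 0.00143, edgeR) and than in TBLC (2.33 ± 0.55, adjusted p = 0.000544). Without the first EPI-T library the call against EPI-T was lost (log2 difference 1.40, adjusted p = 0.0581, edgeR). Plagl1, a zinc finger transcription factor that acts on other imprinted genes, had 6.82 and 5.49 CPM in PrE-T, 28.4 and 27.4 CPM in EPI-T and 94.0 and 84.2 CPM in TBLC. The 3 states did not overlap, and the log2 difference was -2.18 ± 0.15 between PrE-T and EPI-T, -3.85 ± 0.12 between PrE-T and TBLC and -1.67 ± 0.097 between EPI-T and TBLC. Mest, a hydrolase-like gene of the mesoderm, had 32.8 and 28.3 CPM in PrE-T, 102 and 97.4 CPM in EPI-T and 84.2 and 84.3 CPM in TBLC. PrE-T was lower than both, with log2 differences of -1.71 ± 0.086 from EPI-T and -1.46 ± 0.086 from TBLC. Dlk1, a Notch-ligand-like membrane protein, was low throughout, at 1.75 and 2.23 CPM in PrE-T, 2.34 and 3.07 CPM in EPI-T and 5.28 and 5.76 CPM in TBLC. It was lower in PrE-T than in TBLC (-1.47 ± 0.30, adjusted p = 9.48e-05, edgeR) and in EPI-T than in TBLC (-1.04 ± 0.29, adjusted p = 0.00245, edgeR).

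**Figure D2:**
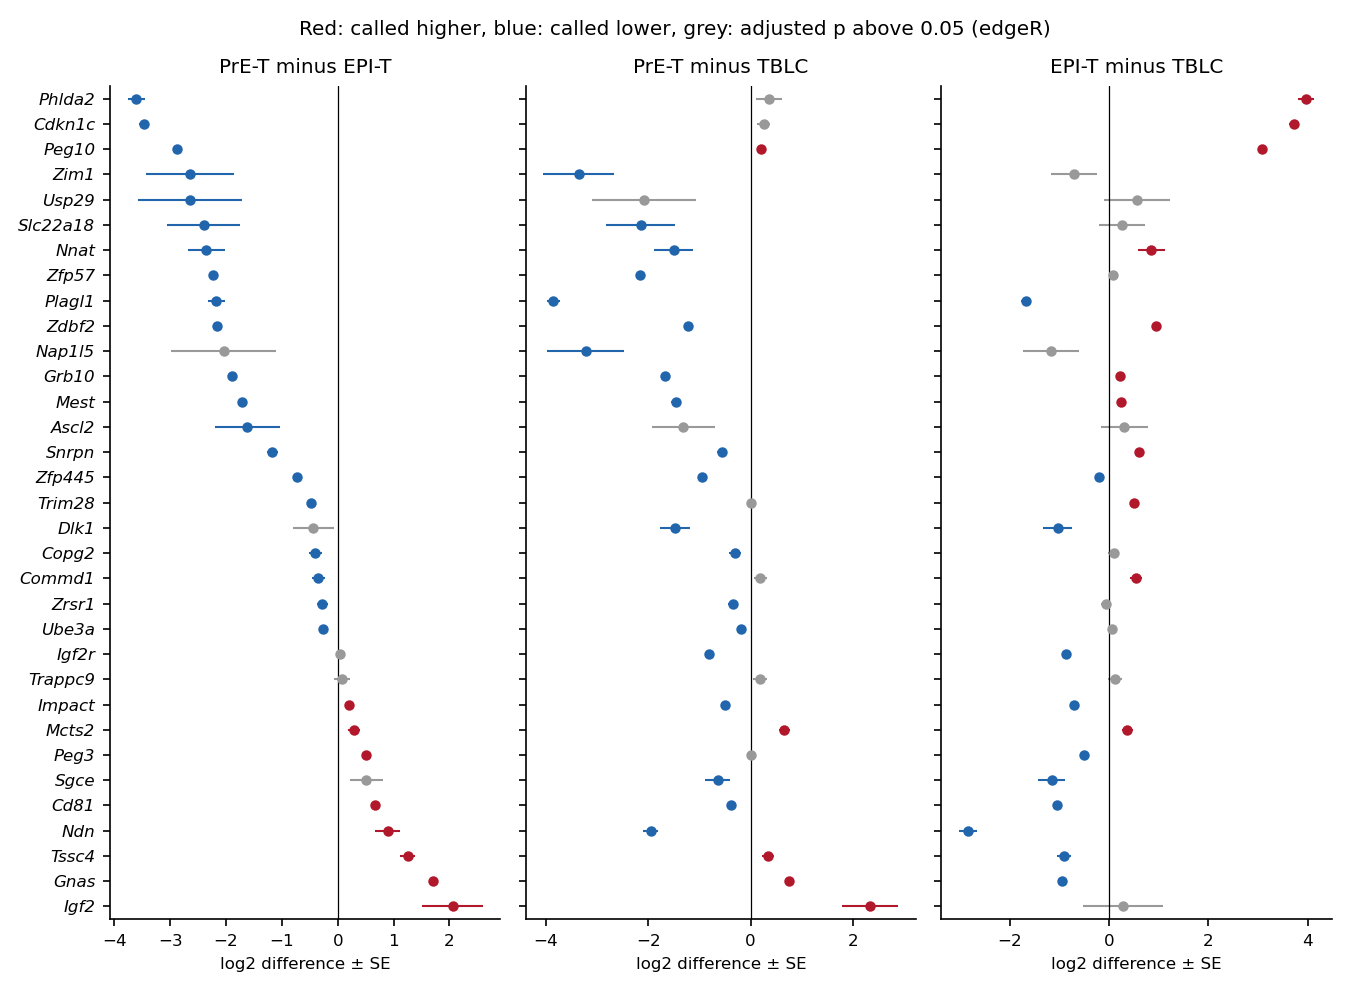
Log2 differences with their standard errors (edgeR) for the 33 tested genes, for PrE-T minus EPI-T, PrE-T minus TBLC and EPI-T minus TBLC, sorted by the first. Phlda2, Cdkn1c and Peg10 head the lower end of the first panel at -3.61, -3.47 and -2.87 and the upper end of the third at 3.97, 3.73 and 3.08, and lie near 0 in the second.

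The Peg3 cluster was split. Peg3, a zinc finger gene, had 103 and 97.1 CPM in PrE-T, 72.3 and 68.1 CPM in EPI-T and 97.9 and 103 CPM in TBLC, and was higher in PrE-T than EPI-T, with a log2 difference of 0.51 ± 0.073, and level with TBLC (-0.00 ± 0.070, adjusted p = 0.997, edgeR). Its neighbours Zim1 and Usp29 were near 0 in PrE-T. Zim1 had 0.186 and 0.372 CPM in PrE-T, 1.60 and 1.92 CPM in EPI-T and 1.33 and 4.54 CPM in TBLC, and the 2 TBLC libraries differed from each other more than EPI-T from TBLC. Usp29 had 0.261 and 0 CPM in PrE-T, 0.984 and 0.768 CPM in EPI-T and 0.508 and 0.698 CPM in TBLC. Both were called lower in PrE-T than in EPI-T (adjusted p = 0.00513 for Zim1 and 0.0134 for Usp29, edgeR), with no fold given at these counts. The Usp29 call was lost without the first EPI-T or the second PrE-T library (adjusted p = 0.0884 and 0.143, edgeR).

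Genes known for their part in neurons did not move as one. Snrpn, which encodes a spliceosomal protein, had 30.7 and 38.0 CPM in PrE-T, 79.1 and 75.0 CPM in EPI-T and 51.7 and 49.6 CPM in TBLC. It was lowest in PrE-T, with a log2 difference of -1.17 ± 0.095 from EPI-T. Ndn, which encodes necdin, had 8.13 and 7.44 CPM in PrE-T, 4.96 and 3.31 CPM in EPI-T and 29.9 and 30.5 CPM in TBLC. Here TBLC stood above both sorted states, with log2 differences of -1.95 ± 0.15 for PrE-T and -2.85 ± 0.18 for EPI-T from TBLC, and PrE-T was higher than EPI-T (0.89 ± 0.23). Nnat, a small membrane protein gene, had 1.38 and 1.07 CPM in PrE-T, 5.86 and 6.86 CPM in EPI-T and 2.89 and 4.19 CPM in TBLC, with PrE-T lowest (-2.35 ± 0.33 against EPI-T and -1.50 ± 0.38 against TBLC). Nap1l5, a nucleosome assembly protein relative, was at 0.112 and 0.207 CPM in PrE-T, 0.615 and 0.720 CPM in EPI-T and 1.02 and 2.05 CPM in TBLC and was called lower in PrE-T than in TBLC (adjusted p = 0.000501, edgeR) and not called between PrE-T and EPI-T (adjusted p = 0.0566, edgeR). Ube3a, a ubiquitin ligase gene, differed little, with a log2 difference of -0.25 ± 0.058 between PrE-T and EPI-T. Magel2 did not pass the filter in these libraries.

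The genes that PrE-T had at higher levels than EPI-T, beside Igf2, Peg3 and Ndn, were Gnas, Tssc4, Cd81, Mcts2 and Impact. Gnas, which encodes the alpha subunit of the stimulatory G protein, had 300.2 and 323 CPM in PrE-T, 97.3 and 94.3 CPM in EPI-T and 184 and 188 CPM in TBLC. The 3 states did not overlap, and the log2 difference was 1.70 ± 0.060 between PrE-T and EPI-T and 0.74 ± 0.056 between PrE-T and TBLC (adjusted p = 1.41e-19 and 4.07e-12, edgeR). Tssc4, from the Kcnq1 domain, had 27.6 and 27.2 CPM in PrE-T, 11.9 and 10.99 CPM in EPI-T and 22.2 and 21.2 CPM in TBLC. Cd81, a tetraspanin gene of the same domain, had 111 and 122 CPM in PrE-T, 75.5 and 71.1 CPM in EPI-T and 149 and 155 CPM in TBLC. Both were lowest in EPI-T, with log2 differences between PrE-T and EPI-T of 1.25 ± 0.13 for Tssc4 and 0.67 ± 0.071 for Cd81. Slc22a18, a transporter gene beside Phlda2, was at 0.373 and 0.207 CPM in PrE-T, 1.19 and 2.02 CPM in EPI-T and 1.37 and 1.26 CPM in TBLC, lower in PrE-T than in EPI-T (adjusted p = 0.00201, edgeR) and than in TBLC (adjusted p = 0.00627, and 0.0617 without the second PrE-T library, edgeR). Zdbf2, a zinc finger gene on which imprinting is set in the early embryo, had 79.5 and 88.1 CPM in PrE-T, 378 and 370.1 CPM in EPI-T and 189.9 and 200.5 CPM in TBLC. Its order was EPI-T, TBLC, PrE-T with no overlap, and the log2 difference was -2.16 ± 0.061 between PrE-T and EPI-T and -1.22 ± 0.062 between PrE-T and TBLC. The remaining tested genes, Copg2, Impact, Mcts2, Trappc9, Zrsr1 and Commd1, had log2 differences of at most 0.40 in size between PrE-T and EPI-T.

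Against TBLC, 25 of the 33 genes were called in PrE-T (5 higher, 20 lower) and 22 in EPI-T (11 higher, 11 lower). Of all genes, 69.7% were called in PrE-T (34.3% higher, 35.4% lower) and 67.1% in EPI-T (31.2% higher, 36% lower). These 2 comparisons use the same TBLC libraries, and the comparison of PrE-T with EPI-T uses the libraries of both. The median log2 difference over the genes was -0.57 for PrE-T and 0.09 for EPI-T, beside -0.03 and -0.07 over all genes. With scaling on library totals in place of TMM, which moved the median of all genes to -0.35 for PrE-T and -0.28 for EPI-T, the counts were 3 higher and 25 lower in PrE-T and 8 higher and 15 lower in EPI-T. Past 2-fold, 1 gene was higher and 11 lower in PrE-T (32.3% of all genes called), and 3 were higher and 5 lower in EPI-T (30.2%). The 3 higher in EPI-T were Phlda2, Cdkn1c and Peg10, with log2 differences of 3.97 ± 0.17, 3.73 ± 0.095 and 3.08 ± 0.050, and the 1 higher in PrE-T was Igf2.

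The regulators split as well. Zfp57, the zinc finger protein that binds the methylated hexamer, had 143 and 142 CPM in PrE-T, 681 and 660.2 CPM in EPI-T and 637 and 643 CPM in TBLC. PrE-T stood apart from both other states: its log2 difference from TBLC was -2.17 ± 0.051 (adjusted p = 2.75e-23, edgeR), while EPI-T differed from TBLC by 0.07 ± 0.047 (adjusted p = 0.207; with library totals -0.14, adjusted p = 0.00783). Zfp445, the other such zinc finger protein, had 53.0 and 58.1 CPM in PrE-T, 91.1 and 93.2 CPM in EPI-T and 105 and 109 CPM in TBLC. It was lower in PrE-T than in EPI-T (log2 difference -0.73 ± 0.076) and than in TBLC (-0.94 ± 0.074). Between EPI-T and TBLC the difference was -0.21 ± 0.071 (adjusted p = 0.0107, edgeR), and the call was lost without the first EPI-T or the second TBLC library (adjusted p = 0.0865 and 0.0819, edgeR). Trim28, the corepressor that both recruit, had 567 and 555 CPM in PrE-T, 780.3 and 782 CPM in EPI-T and 553 and 556 CPM in TBLC. It was highest in EPI-T, with a log2 difference of -0.48 ± 0.046 between PrE-T and EPI-T. Between PrE-T and TBLC it was 0.02 ± 0.046 (adjusted p = 0.775, edgeR), and with library totals -0.31 (adjusted p = 8.46e-07).

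Other parts of the DNA methylation machinery were followed as a list of 30 genes chosen for their role, of which 29 were tested. Between PrE-T and EPI-T, 5 were higher and 22 lower (median log2 difference -0.57), and between EPI-T and TBLC 22 were higher and 0 lower (median 0.67). Between PrE-T and TBLC, 11 were higher and 13 lower (median -0.11). Beside these counts, and those of the second list below, stand the shares over all genes. They were 35.9% higher and 33.6% lower between PrE-T and EPI-T, 31.2% and 36% between EPI-T and TBLC, and 34.3% and 35.4% between PrE-T and TBLC. The lowest adjusted p between PrE-T and EPI-T belonged to Tet1, an enzyme that oxidises methylcytosine, with 139 and 141 CPM in PrE-T, 1077 and 1049 CPM in EPI-T and 440.3 and 452 CPM in TBLC. Zfp42, a pluripotency gene, and Hells and Atrx, 2 chromatin remodellers, followed, with log2 differences of -2.68 ± 0.060, -1.75 ± 0.051 and -1.49 ± 0.050. The 5 higher in PrE-T were Dnmt3b (1.42 ± 0.050), Dnmt3a (1.41 ± 0.074), Tet3 (0.96 ± 0.14), Dnmt3l (0.71 ± 0.055) and Mbd3 (0.66 ± 0.059). Against TBLC, Dnmt3b and Dnmt3l differed in PrE-T by 3.28 ± 0.056 and 2.48 ± 0.062. Between EPI-T and TBLC the lowest adjusted p belonged to Hells, Dnmt3b, Uhrf1 and Ehmt2, with log2 differences of 1.74 ± 0.051, 1.87 ± 0.056, 1.72 ± 0.054 and 1.69 ± 0.056. A second list of 53 further imprinted genes had 45 with a row and 32 tested, of which 10 were higher and 12 lower in PrE-T than in EPI-T (median -0.10). Of these, Cobl had 12.4 and 10.8 CPM in PrE-T, 202 and 206 CPM in EPI-T and 225 and 227 CPM in TBLC, with a log2 difference of -4.14 ± 0.083 between PrE-T and EPI-T. Adam23, Ppp1r9a and Slc38a4 followed by adjusted p, with log2 differences of -3.01 ± 0.085, -3.31 ± 0.11 and -1.50 ± 0.071. Against TBLC, 5 of the 32 were higher and 18 lower in PrE-T (median -0.67), and 8 higher and 15 lower in EPI-T (median -0.15).

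In unsorted diffTBLC, compared with TBLC at 0 h of actinomycin D, 25 of 32 genes were called, 16 higher and 9 lower, beside 82.5% of all 14463 genes (42.8% higher, 39.7% lower). The median log2 difference was 0.22 over the genes and 0.02 over all genes. Scaled on library totals, which moved the median of all genes to -0.19, 11 were higher and 13 lower. Past 2-fold, 9 were higher and 3 lower (28.8% of all genes called). Cdkn1c had 134 and 134 CPM in diffTBLC and 7.97 and 7.94 CPM in TBLC. Peg10 had 888 and 852 CPM in diffTBLC and 62.4 and 62.8 CPM in TBLC. Phlda2 had 41.2 and 41.8 CPM in diffTBLC and 5.23 and 5.01 CPM in TBLC. These 3 had the largest positive differences of the 32, 4.07 ± 0.057 for Cdkn1c, 3.80 ± 0.030 for Peg10 and 3.02 ± 0.086 for Phlda2 on the log2 scale, with no overlap between the groups. Plagl1 had the largest negative difference, with 9.19 and 7.62 CPM in diffTBLC and 95.9 and 97.6 CPM in TBLC (-3.52 ± 0.079, adjusted p = 1.68e-30, edgeR). Zfp445 had 77.8 and 80.1 CPM in diffTBLC and 202 and 192 CPM in TBLC (-1.32 ± 0.033), with no overlap. Igf2r had 63.4 and 63.0 CPM in diffTBLC and 141 and 145 CPM in TBLC (-1.18 ± 0.036). Nnat, Sgce, Mcts2, Dlk1, Snrpn and Gnas were more than 2-fold higher in diffTBLC, given here with their log2 differences. They were Nnat (11.1 and 11.4 CPM in diffTBLC and 3.68 and 3.40 CPM in TBLC, 1.66), Sgce (8.64 and 9.36 CPM in diffTBLC and 3.51 and 2.98 CPM in TBLC, 1.46) and Mcts2 (25.1 and 24.9 CPM in diffTBLC and 11.2 and 9.93 CPM in TBLC, 1.24). With them came Dlk1 (4.05 and 3.02 CPM in diffTBLC and 1.84 and 1.28 CPM in TBLC, 1.17), Snrpn (105 and 105 CPM in diffTBLC and 47.6 and 49.1 CPM in TBLC, 1.12) and Gnas (294 and 298 CPM in diffTBLC and 136 and 141 CPM in TBLC, 1.10), and in none of the 6 did the groups overlap. Sgce and Dlk1 were thus called higher in this culture and lower in both sorted states, each against its own TBLC libraries, and Gnas was higher here and in PrE-T. The list of further imprinted genes had 33 tested here, 10 higher and 14 lower (median -0.17), and that of the methylation machinery 29, 11 higher and 16 lower (median -0.27). Dnmt3l and Dnmt3b, subunit and enzyme of DNA methylation, had the lowest adjusted p there, with log2 differences of 4.04 ± 0.030 and 2.61 ± 0.032. Zfp57 did not differ past the threshold in the unsorted culture, at 749.8 and 731 CPM in diffTBLC and 752 and 741 CPM in TBLC (-0.01 ± 0.020, adjusted p = 0.56, edgeR), and with library totals its difference was -0.22 (adjusted p = 1.48e-18). Trim28 was higher in diffTBLC, with 1090 and 1095 CPM in diffTBLC and 940.0 and 952 CPM in TBLC (0.21 ± 0.020), and differed by 0.00 with library totals. The fibroblast and feeder markers summed to 603.1 to 617.1 CPM in diffTBLC and 1294 to 1295 CPM in TBLC (3 higher and 14 lower of 18, 0 of them at 0), the primitive endoderm markers to 7774 to 7775 CPM in diffTBLC and 1219 to 1222 CPM in TBLC (18 of 18 higher), and their part in these differences was not tested.

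Under actinomycin D the CPM of a gene falls if its RNA is lost faster than that of the average gene and increases if it is lost more slowly, so the slopes below (log2 CPM per hour over 0 to 3 h) are relative to the other genes. In diffTBLC 26 of 32 genes had a slope that differed from 0, 17 rising and 9 falling, beside 59.7% of all genes, and in TBLC 28 of 32, 22 rising and 6 falling, beside 65.6%. Scaled on library totals, the split was 7 rising and 11 falling in diffTBLC and 12 and 8 in TBLC. Scaled on ribosomal protein genes, which moved the median slope of all genes to -0.29 in diffTBLC and -0.27 in TBLC, 26 fell in diffTBLC, 20 fell in TBLC and none rose, so the signs below are relative to the scaling and the order of the genes is what they show. Zrsr1, a retrogene that encodes a splicing factor of the U2AF family, had the lowest slope of the 32 in both states. In diffTBLC it had 24.1 and 24.8 CPM at 0 h, 8.94 and 10.7 CPM at 1 h, 6.47 and 5.83 CPM at 2 h and 3.91 and 3.81 CPM at 3 h. In TBLC it had 25.5 and 26.4 CPM at 0 h, 16.4 and 16.2 CPM at 1 h, 5.92 and 7.41 CPM at 2 h and 2.92 and 4.37 CPM at 3 h. Its slope was -0.94 ± 0.065 in diffTBLC and -0.96 ± 0.059 in TBLC (adjusted p = 2.61e-10 and 2.2e-11, edgeR). Among the slopes of all genes, counted from the lowest, it stood at the percentile 1.01 in diffTBLC and 0.933 in TBLC. The slope of Zrsr1 was -0.93 in TBLC_PlaB-, -0.93 in TBLC_Ctrl, -0.92 in siVirma, -0.68 in siNC1, -0.90 in the libraries labelled siIgf2bp3 and -0.72 in siNC2 cells.

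**Figure D3:**
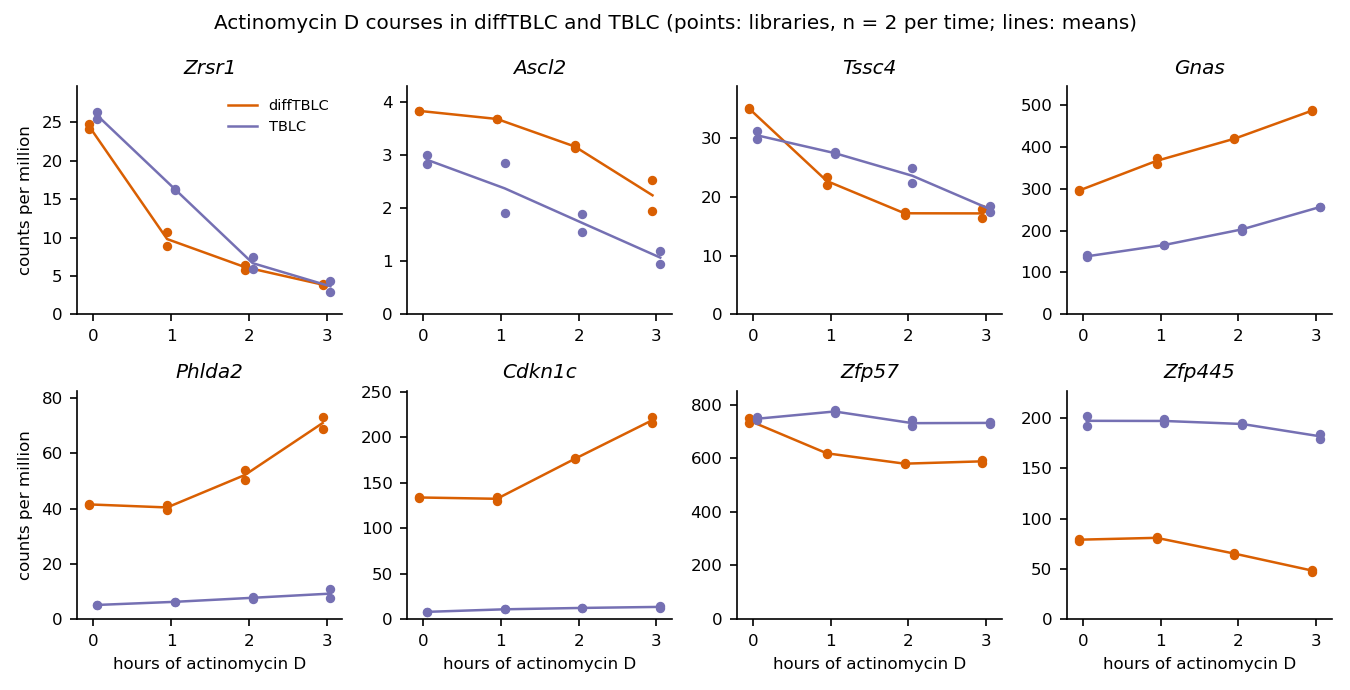
CPM of 8 genes at 0, 1, 2 and 3 h of actinomycin D in diffTBLC and TBLC (points are libraries, lines join the means, linear axes from 0). Zrsr1 falls below 4.5 CPM by 3 h in both states, Gnas climbs in both, and Zfp445 and Zfp57 decline in diffTBLC while staying nearly level in TBLC.

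Ascl2, Tssc4, Ube3a and Zdbf2 fell in both states as well. Ascl2 had a slope of -0.23 ± 0.061 in diffTBLC and -0.45 ± 0.069 in TBLC. Tssc4 had one of -0.37 ± 0.041 in diffTBLC and -0.25 ± 0.039 in TBLC. Ube3a had one of -0.19 ± 0.035 in diffTBLC and -0.33 ± 0.033 in TBLC. All these slopes passed the threshold (edgeR), as did those of Zdbf2, -0.10 ± 0.034 in diffTBLC and -0.11 ± 0.032 in TBLC. At the other end, Gnas, Commd1, Phlda2 and Cdkn1c had positive slopes in both states. Gnas had 294 and 298 CPM at 0 h, 374 and 361 CPM at 1 h, 421 and 419.6 CPM at 2 h and 487 and 488 CPM at 3 h in diffTBLC. In TBLC it had 136 and 141 CPM at 0 h, 167 and 165 CPM at 1 h, 199.5 and 207 CPM at 2 h and 256 and 258 CPM at 3 h. Its slope was 0.24 ± 0.015 in diffTBLC and 0.30 ± 0.015 in TBLC, and, scaled on ribosomal protein genes, -0.07 in diffTBLC and -0.01 in TBLC. Phlda2 and Cdkn1c, the growth restrainers, had slopes of 0.27 ± 0.035 and 0.25 ± 0.029 in diffTBLC and of 0.28 ± 0.055 and 0.24 ± 0.043 in TBLC, and Cdkn1c -0.05 in diffTBLC when scaled on ribosomal protein genes.

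The 2 states differed in slope for 6 genes, all lower in diffTBLC than in TBLC, beside 8.29% of all genes called (5.72% lower, 2.57% higher). Zfp445 had 77.8 and 80.1 CPM at 0 h, 82.0 and 79.7 CPM at 1 h, 66.2 and 64.1 CPM at 2 h and 47.3 and 49.2 CPM at 3 h in diffTBLC. In TBLC it had 202 and 192 CPM at 0 h, 195 and 199.5 CPM at 1 h, 193 and 195 CPM at 2 h and 179.5 and 184 CPM at 3 h. The slope was -0.24 ± 0.030 in diffTBLC and -0.04 ± 0.027 in TBLC, a difference of -0.20 ± 0.041 (adjusted p = 0.00512, edgeR). The call was lost without either diffTBLC library of 3 h (adjusted p = 0.126 and 0.121, edgeR). Zfp57 had 749.8 and 731 CPM at 0 h, 619.8 and 616 CPM at 1 h, 582 and 577 CPM at 2 h and 593 and 583 CPM at 3 h in diffTBLC. In TBLC it had 752 and 741 CPM at 0 h, 778 and 770.2 CPM at 1 h, 741 and 720.5 CPM at 2 h and 736 and 727 CPM at 3 h. The groups overlapped at 0 h and not later, and the slopes differed by -0.09 ± 0.028 (adjusted p = 0.0479, edgeR). This call stood close to the threshold and was lost without any one of 12 of the 16 libraries. Peg3, Sgce, Grb10 and Impact differed by -0.22 ± 0.049, -0.21 ± 0.056, -0.15 ± 0.031 and -0.09 ± 0.028, and each of these calls was also lost without at least 2 of the 16 libraries, among them the diffTBLC libraries of 3 h. The number of genes called was 2 and 1 without the first and the second diffTBLC library of 3 h, and 3 without the second TBLC library of 0 h or either of 3 h. With scaling on ribosomal protein genes none of the 6 differences was called (edgeR), and without the 0 h libraries 16 genes were called, 6 higher and 10 lower, with a difference for Zfp57 of 0.0039.

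After 8 h in SLM, 2 of the genes differed at 0 h and 13 over 1 to 3 h of actinomycin D. At 0 h, 2 of 32 genes were called, both higher in TBLC_PlaB- than in TBLC_Ctrl, beside 1.25% of all 14107 genes (0.794% higher). Impact, which encodes a regulator of translation, had 99.8 and 97.8 CPM in TBLC_PlaB- and 88.8 and 86.3 CPM in TBLC_Ctrl (0.18 ± 0.040, adjusted p = 0.00308, edgeR). Igf2r had 159 and 153 CPM in TBLC_PlaB- and 144 and 142 CPM in TBLC_Ctrl (0.13 ± 0.033, adjusted p = 0.0205, edgeR). In neither gene did the groups overlap, and both calls were lost without the second TBLC_Ctrl or the first TBLC_PlaB- library of 0 h (adjusted p = 0.203 and 0.105 for Impact, 0.308 and 0.428 for Igf2r, edgeR). DESeq2 called neither (adjusted p = 0.051 for Impact and 0.121 for Igf2r). Phlda2 was at 9.81 and 10.5 CPM in TBLC_PlaB- and 9.88 and 9.79 CPM in TBLC_Ctrl, not past the threshold. Cdkn1c was at 18.8 and 18.5 CPM in TBLC_PlaB- and 18.4 and 19.5 CPM in TBLC_Ctrl, with overlap. Zfp57 had 803 and 795 CPM in TBLC_PlaB- and 806 and 797 CPM in TBLC_Ctrl. Zfp445 had 80.6 and 81.9 CPM in TBLC_PlaB- and 82.9 and 79.0 CPM in TBLC_Ctrl (0.01 ± 0.043). Trim28 had 1288 and 1282 CPM in TBLC_PlaB- and 1285 and 1327 CPM in TBLC_Ctrl (-0.02 ± 0.021). None of the 3 regulators passed the threshold. The fibroblast and feeder markers summed to 2305 to 2315 CPM in TBLC_PlaB- and 2290 to 2301 CPM in TBLC_Ctrl. Averaged over 1 to 3 h, 13 of 32 were called, 11 higher and 2 lower, beside 20.8% of all genes. Among the lowest adjusted p were Impact (0.20 ± 0.024) and Igf2r (0.18 ± 0.019), and the 2 lower ones were Phlda2 (-0.15 ± 0.059) and Zfp57 (-0.04 ± 0.013). The hours differed: 13 genes were called at 1 h alone, 3 at 2 h and 7 at 3 h. None of the 32 slopes differed between TBLC_PlaB- and TBLC_Ctrl (edgeR; 1 at an unadjusted p under 0.05, 1 called by DESeq2 and 1 called without the first TBLC_Ctrl library of 0 h), beside 0.369% of all genes.

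The knockdowns ask whether the m6A machinery sets these levels. In the siVirma libraries Virma itself had 86.9 and 80.8 CPM, against 122 and 114 CPM in siNC (-0.50 ± 0.086, adjusted p = 1.2e-06, edgeR). In the libraries labelled siMettl3, Mettl3 had 26.3 and 27.4 CPM, against 31.1 and 29.6 CPM in siNC (-0.18 ± 0.15, adjusted p = 0.765, edgeR), so a knockdown was not detected there. Both comparisons share the siNC libraries. With siVirma 9 of 30 genes were called, 8 higher and 1 lower, beside 7.15% of all 12141 genes (3.54% higher, 3.61% lower). In the libraries labelled siMettl3 it was 2, both higher, beside 0.832% (0.379% higher). Cdkn1c had 304 and 308 CPM in siVirma and 212 and 209 CPM in siNC (0.54 ± 0.055, adjusted p = 5.31e-19, edgeR), with no overlap. Phlda2 had 33.0 and 37.5 CPM in siVirma and 21.5 and 22.7 CPM in siNC (0.68 ± 0.16, adjusted p = 0.000971, edgeR), with no overlap. The Phlda2 call was lost without the second siVirma library (adjusted p = 0.0688, edgeR) and with DESeq2 (adjusted p = 0.0615). Zdbf2 had 371 and 358 CPM in siVirma, 334 and 330.0 CPM in the libraries labelled siMettl3 and 271 and 281 CPM in siNC. In neither set did Zdbf2 overlap with siNC. Peg10 had 2137 and 2034 CPM in siVirma, 2141 and 2132 CPM in those labelled siMettl3 and 1872 and 1888 CPM in siNC, again with no overlap. These 2 genes were called in both comparisons, Zdbf2 at 0.40 ± 0.050 in siVirma and 0.27 ± 0.050 in those labelled siMettl3, and Peg10 at 0.15 ± 0.027 in siVirma and 0.18 ± 0.026 in those labelled siMettl3. Ascl2 (5.79 and 8.27 CPM in siVirma and 3.62 and 2.52 CPM in siNC), Plagl1 (42.1 and 35.7 CPM in siVirma and 22.4 and 31.5 CPM in siNC, 0.52 ± 0.15) and Mest (226 and 226 CPM in siVirma and 206 and 189 CPM in siNC, 0.20 ± 0.060) were higher as well. Gnas was lower with siVirma, at 227 and 255 CPM in siVirma and 278 and 289 CPM in siNC (-0.23 ± 0.055). Of these, Ascl2 and Mest each lost the call without any one of 3 of the 4 libraries, and Plagl1 and Gnas without either of 2, with adjusted p between 0.0537 and 0.421 (edgeR). Peg3 was called higher at 138 and 147 CPM in siVirma and 120.4 and 124 CPM in siNC (0.22 ± 0.075, adjusted p = 0.0453, edgeR), and lost the call without any one of the 4 libraries (adjusted p between 0.059 and 0.363, edgeR). Without the first siVirma or the second siNC library 5 genes were called in all, and DESeq2 called 3 of the 30. Zfp57 had 418 and 415 CPM in siVirma, 401 and 426 CPM in those labelled siMettl3 and 404 and 394 CPM in siNC. Zfp445 had 113 and 115 CPM in siVirma, 129 and 117 CPM in those labelled siMettl3 and 121 and 121 CPM in siNC. Trim28 had 1603 and 1611 CPM in siVirma, 1647 and 1657 CPM in those labelled siMettl3 and 1660 and 1682 CPM in siNC. None of the 3 was called in either comparison, with log2 differences in siVirma of 0.06 ± 0.045 for Zfp57, -0.09 ± 0.079 for Zfp445 and -0.06 ± 0.028 for Trim28. The primitive endoderm markers summed to 8726 to 8742 CPM in siVirma and 12950 to 13050 CPM in siNC (0 higher and 17 lower of 18), and to 11240 to 11350 CPM in those labelled siMettl3 (0 higher and 12 lower). The part of these markers in the results was not tested. In the list of the methylation machinery, 7 of 29 were higher and 4 lower with siVirma (median 0.12), and in that of further imprinted genes 3 of 31 were higher and 3 lower (median 0.10). In the libraries labelled siMettl3 it was 3 higher and 0 lower in the first list and 1 higher and 1 lower in the second.

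In the actinomycin D courses the controls limit what can be read. Between 0 and 1 h, 67% of genes changed in siNC1 and 73.1% in siNC2, against 17.1% in siVirma, 22.7% in the libraries labelled siIgf2bp3, 41.1% in diffTBLC and 37% in TBLC. Between 1 and 2 h it was 57.2% in siNC1 and 61.4% in siNC2, against 34.7% in siVirma, 38.7% in those labelled siIgf2bp3, 43.2% in diffTBLC and 48% in TBLC. The 2 control arms thus changed more than these 4 in both steps, and most in the first, while siVirma and the libraries labelled siIgf2bp3 changed least in the first, so every comparison is given at 0 h and over 1 to 3 h. Virma had 34.7 and 33.6 CPM in siVirma and 40.7 and 41.7 CPM in siNC1 at 0 h. The log2 difference was -0.27 ± 0.063 at 0 h and -1.04 ± 0.036 over 1 to 3 h (adjusted p = 0.000309 and 3.36e-25, edgeR). At 0 h 27 of 32 genes were called in siVirma, 19 higher and 8 lower, beside 60.5% of all 13664 genes, and over 1 to 3 h 28, 15 higher and 13 lower, beside 71.5%. Scaled on library totals, which moved the median of all genes at 0 h to 0.24, 20 were higher and 3 lower at 0 h. For 15 of the 32 the 2 readings were called with opposite signs, as were 28.3% of all genes.

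**Figure D4:**
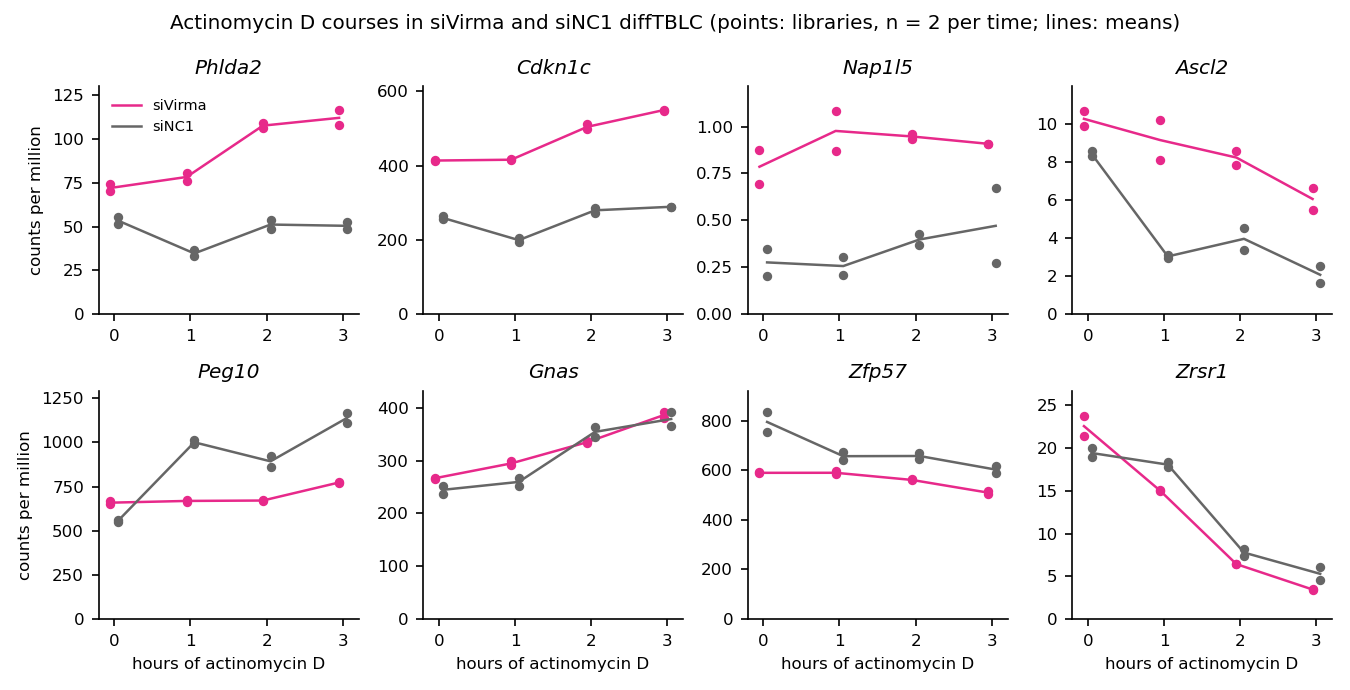
CPM of 8 genes at 0, 1, 2 and 3 h of actinomycin D in siVirma and siNC1 diffTBLC (points are libraries, lines join the means, linear axes from 0). Phlda2 and Cdkn1c are higher in siVirma at every hour, Zfp57 is lower at every hour, and Peg10 is higher in siVirma at 0 h (668 and 651 CPM, against 551 and 562 CPM in siNC1) and lower from 1 h on.

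Genes with the same sign in both readings can be named. Phlda2 had 74.0 and 70.0 CPM at 0 h, 80.7 and 75.9 CPM at 1 h, 109 and 106 CPM at 2 h and 116 and 108 CPM at 3 h in siVirma cells. In siNC1 cells it had 55.5 and 51.3 CPM at 0 h, 36.4 and 33.0 CPM at 1 h, 53.7 and 48.7 CPM at 2 h and 52.4 and 48.5 CPM at 3 h. No library of siVirma overlapped with siNC1 at the same hour, and the log2 difference was 0.43 ± 0.061 at 0 h and 1.13 ± 0.035 over 1 to 3 h (adjusted p = 1.13e-07 and 8.28e-27, edgeR). Cdkn1c differed by 0.67 ± 0.040 at 0 h and 0.95 ± 0.023 over 1 to 3 h, with 416 and 412 CPM in siVirma and 263 and 256 CPM in siNC1 at 0 h. Nnat (0.60 at 0 h and 0.94 over 1 to 3 h), Ascl2 (0.29 and 1.39), Nap1l5 (1.45 and 1.38), Sgce (0.79 and 0.34), Mest (0.53 and 0.14) and Cd81 (0.26 and 0.20) were likewise higher in siVirma in both readings. Zfp57 was lower in both, at 587 and 592 CPM in siVirma and 754 and 835 CPM in siNC1 at 0 h, with log2 differences of -0.43 ± 0.043 at 0 h and -0.21 ± 0.025 over 1 to 3 h. In the siVirma libraries with no actinomycin D, Zfp57 differed from siNC by 0.06 ± 0.045 and was not called (adjusted p = 0.487, edgeR). Zfp445 was higher at 0 h, at 60.2 and 62.4 CPM in siVirma and 43.6 and 40.7 CPM in siNC1 (0.54 ± 0.058), and lower over 1 to 3 h (-0.57 ± 0.033). Trim28 was lower at 0 h, at 1270 and 1232 CPM in siVirma and 1436 and 1440 CPM in siNC1 (-0.20 ± 0.039; with library totals -0.01, adjusted p = 0.89, edgeR), and was not called over 1 to 3 h (0.03 ± 0.023, adjusted p = 0.212, edgeR). The primitive endoderm markers were lower in siVirma here too (17 of 18 at 0 h and 18 of 18 over 1 to 3 h), and their part in these differences was not tested.

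In slope, 4 of 32 genes differed between siVirma and siNC1, beside 8.31% of all genes: Slc22a18 (0.54 ± 0.11) and Tssc4 (0.35 ± 0.081) higher, Impact (-0.27 ± 0.064) and Mest (-0.14 ± 0.037) lower. Each of the 4 calls was lost without any one of 12 of the 16 libraries (all but those of siNC1 at 1 and 2 h), 17 genes were called without either siNC1 library of 1 h, and without the 0 h libraries 0 genes were called, of the 32 and of all genes (edgeR; adjusted p of 1 for each of the 4). With DESeq2 11 of the 32 were called, 4 higher and 7 lower, and with library totals, with no filter or with scaling on ribosomal protein genes 0 were (edgeR).

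In the siIgf2bp3 course the targeted gene was higher at 0 h, with 28.7 and 25.2 CPM in the libraries labelled siIgf2bp3 and 19.9 and 16.7 CPM in siNC2 (0.56 ± 0.079), and lower over 1 to 3 h (-0.58 ± 0.041). At 0 h it thus went against the label, and every direction below is that of the libraries so labelled. Of 32 genes, 24 were called at 0 h (14 higher, 10 lower, beside 65.8% of all 13580 genes) and 26 over 1 to 3 h (12 higher, 14 lower, beside 70.1%; with library totals, which moved the median of all genes to -0.15, 9 higher and 19 lower), with opposite signs in 22 of the 32 and in 52% of all genes. Phlda2 had 43.0 and 40.2 CPM at 0 h, 42.7 and 42.4 CPM at 1 h, 55.3 and 52.1 CPM at 2 h and 92.2 and 83.6 CPM at 3 h in the libraries labelled siIgf2bp3. In siNC2 it had 55.4 and 57.6 CPM at 0 h, 35.0 and 31.5 CPM at 1 h, 50.8 and 47.7 CPM at 2 h and 40.3 and 42.8 CPM at 3 h. The libraries labelled siIgf2bp3 were lower at 0 h and higher at each later hour, with a log2 difference of -0.44 ± 0.060 at 0 h and 0.52 ± 0.036 over 1 to 3 h. Peg10 differed the other way, by 0.72 ± 0.042 at 0 h and -0.31 ± 0.024 over 1 to 3 h. Zfp445 had 73.6 and 72.0 CPM in the libraries labelled siIgf2bp3 and 40.0 and 39.0 CPM in siNC2 at 0 h, and differed by 0.88 ± 0.051 at 0 h and -0.59 ± 0.029 over 1 to 3 h. Trim28 had 1239 and 1231 CPM in those labelled siIgf2bp3 and 1492 and 1492 CPM in siNC2 at 0 h, and differed by -0.27 ± 0.038 at 0 h and 0.14 ± 0.022 over 1 to 3 h (with library totals 0.01, adjusted p = 0.731, edgeR). In slope, 25 of 32 genes differed (12 higher, 13 lower), beside 52.1% of all genes, and without the 0 h libraries 0 did, nor any of all genes (edgeR). Scaled on library totals 8 slopes were higher and 16 lower, and on ribosomal protein genes, which moved the median of all genes to -0.64, 0 and 28. Zfp57 had 715 and 748 CPM in those labelled siIgf2bp3 and 727 and 728 CPM in siNC2 at 0 h. It differed by 0.01 ± 0.046 at 0 h (adjusted p = 0.915, edgeR; -0.12, adjusted p = 0.00279, with the compared libraries alone) and 0.08 ± 0.027 over 1 to 3 h (-0.05, adjusted p = 0.0382, with library totals). The primitive endoderm markers summed to 5378 to 5428 CPM in the libraries labelled siIgf2bp3 and 4881 to 4958 CPM in siNC2 at 0 h.

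The IP libraries ask which of these RNAs Igf2bp3 and Ythdf2 hold. With Igf2bp3, 22 of 32 genes were called, 8 higher in the IP and 14 lower, beside 69.8% of all 12904 genes (35% higher, 34.8% lower). With no filter on low counts it was 11 higher and 12 lower. With Ythdf2 it was 29 of 32, 13 higher and 16 lower, beside 78.9% of all 12364 genes (40.1% higher, 38.7% lower). Past 2-fold, it was 4 higher and 4 lower for Igf2bp3 (20.9% of all genes) and 9 higher and 9 lower for Ythdf2 (46.5%). Peg10 was the most enriched of the genes in both. It had 6527 and 6524 CPM in the Igf2bp3 IP and 1503 and 1511 CPM in its input, a log2 difference of 2.11 whose p was too small to be represented. In the Ythdf2 IP it had 14580 and 14490 CPM and in its input 1278 and 1313 CPM (3.49 ± 0.040, adjusted p = 4.87e-58, edgeR). No library of either IP overlapped with its input.

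Ube3a and Peg3 were also higher in both IPs. Ube3a had 426 and 426 CPM in the Igf2bp3 IP and 160.1 and 153 CPM in input, and 267 and 296 CPM in the Ythdf2 IP and 104 and 113 CPM in input, with log2 differences of 1.45 ± 0.039 and 1.37 ± 0.074. Neither IP overlapped with its input for this ubiquitin ligase gene. Peg3 had 564 and 569 CPM in the Igf2bp3 IP and 256 and 264 CPM in input, and 215 and 209.5 CPM in the Ythdf2 IP and 99.2 and 95.5 CPM in input (1.12 ± 0.033 and 1.13 ± 0.075). Grb10 was higher in the Igf2bp3 IP (296 and 275 CPM, against 122 and 134 CPM in input, 1.16 ± 0.044) and lower in the Ythdf2 IP (172 and 162 CPM, against 229.6 and 209.5 CPM in input, -0.39 ± 0.066). The 2 experiments have libraries of their own, and the difference between them was not tested.

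In the Ythdf2 IP the regulators parted. Zfp445 had 168 and 186 CPM in the IP and 42.1 and 44.0 CPM in input (2.04 ± 0.097, adjusted p = 2.75e-27, edgeR), with no overlap. Zfp57 had 488 and 502 CPM in the IP and 424 and 442 CPM in input (0.19 ± 0.051). Trim28 had 514 and 472 CPM in the IP and 848 and 826 CPM in input (-0.76 ± 0.048). Zfp445 and Zfp57 were thus higher in the IP and Trim28 lower. Zrsr1, whose RNA fell fastest under actinomycin D, had 49.0 and 50.8 CPM in the Ythdf2 IP and 10.9 and 11.3 CPM in input (2.16 ± 0.16). Zdbf2 had 178 and 196 CPM in the IP and 57.1 and 44.0 CPM in input (1.91 ± 0.096). Tssc4 had 34.2 and 33.9 CPM in the IP and 7.69 and 10.3 CPM in input (1.90 ± 0.18). All 3 were higher in the IP with no overlap, as was Ndn (5.99 and 6.53 CPM in the IP, against 1.22 and 2.40 CPM in input, 1.75 ± 0.40). Nap1l5 was called higher at 1.63 and 1.57 CPM in the IP, against 0 and 0.687 CPM in input, with no fold given at such counts, and the call was lost without the first input library (adjusted p = 0.282, edgeR). The counts of Nap1l5 were 18 and 20 in the IP and 0 and 2 in input. It thus passed the filter on low counts through the IP libraries, where it was high. It is still among the genes counted above as higher and as higher past 2-fold. Phlda2 had 6.45 and 6.06 CPM in the Ythdf2 IP and 39.7 and 41.5 CPM in input (-2.70 ± 0.16). Mest had 15.2 and 14.9 CPM in the IP and 73.3 and 74.2 CPM in input (-2.30 ± 0.12). Gnas had 70.2 and 61.7 CPM in the IP and 323 and 312 CPM in input (-2.27 ± 0.069). These 3 were depleted, with no overlap. Also more than 2-fold lower, with log2 differences between -2.24 and -1.36, were Slc22a18 (0.817 and 1.18 CPM in the IP and 6.88 and 3.09 CPM in input, -2.24), Sgce (1.82 and 1.81 CPM in the IP and 7.69 and 6.52 CPM in input, -1.95) and Cd81 (74.7 and 72.4 CPM in the IP and 253 and 257 CPM in input, -1.80). The same was true of Dlk1 (2.36 and 1.81 CPM in the IP and 6.48 and 7.21 CPM in input, -1.73), Snrpn (26.5 and 26.5 CPM in the IP and 69.6 and 90.0 CPM in input, -1.60) and Nnat (4.90 and 4.41 CPM in the IP and 12.2 and 11.7 CPM in input, -1.36).

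Lower in the Igf2bp3 IP were Igf2, Nnat, Commd1 and Ascl2 past 2-fold. Igf2, for which the protein family is named, had 1.14 and 1.25 CPM in the IP and 4.55 and 3.75 CPM in input (-1.79 ± 0.37). Nnat had 2.90 and 2.11 CPM in the IP and 5.78 and 5.36 CPM in input (-1.14 ± 0.29). Commd1 had 8.44 and 8.14 CPM in the IP and 17.2 and 18.8 CPM in input (-1.11 ± 0.16). The groups overlapped in none of the 3. Ascl2 had 0.967 and 0.0958 CPM in the IP and 1.40 and 2.14 CPM in input, and its call was lost without the second library of either (adjusted p = 0.2 without that of the IP and 0.139 without that of the input, edgeR) and with DESeq2 (adjusted p = 0.108). The 3 regulators were lower in the Igf2bp3 IP as well. Zfp57 had 488 and 481 CPM in the IP and 561 and 578 CPM in input (-0.23 ± 0.028). Zfp445 had 73.6 and 73.8 CPM in the IP and 103 and 106 CPM in input (-0.51 ± 0.061). Trim28 had 488 and 486 CPM in the IP and 610.4 and 609 CPM in input (-0.32 ± 0.028). The fibroblast and feeder markers summed to 3920 to 3972 CPM in this IP and 1057 to 1084 CPM in its input, with 15 of 16 tested higher, and the primitive endoderm markers to 26060 to 26090 CPM in the IP and 12670 to 12860 CPM in input (14 higher and 2 lower of 18). Their part in the IP values was not tested. In the Ythdf2 libraries the fibroblast and feeder markers summed to 919.2 to 966.9 CPM in the IP and 1047 to 1082 CPM in input, and the primitive endoderm markers to 3212 to 3241 CPM in the IP and 2509 to 2530 CPM in input. Of 29 tested genes of the methylation list, 14 were higher and 6 lower in the Igf2bp3 IP and 16 higher and 11 lower in the Ythdf2 IP. Tet1 was higher in both, with log2 differences of 1.53 ± 0.014 and 1.23 ± 0.052. Of the further imprinted genes, 18 of 30 were higher and 7 lower in the Igf2bp3 IP (median 0.46) and 14 of 26 higher and 10 lower in the Ythdf2 IP (median 0.62).

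Some of these rows cannot be assigned to one gene with certainty. Mcts2 and Zrsr1 are close copies of Mcts1 and Zrsr2 and lie within introns of H13 and Commd1, Mest overlaps Copg2 at its end, Nap1l5 lies within Herc3 and Nnat within Blcap, and Snrpn shares its transcript with Snurf. Zdbf2 overlaps Gpr1 and Zfp445 overlaps Zkscan7, and both of these other genes have rows of counts too. Reads from the antisense RNA Airn over Igf2r, from Peg13 over Trappc9 and from the several transcripts of Gnas may be counted with those genes, since the strand setting of the counting is not given in the sources used here.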

How the data were processed

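RNA was measured in 98 samples of 49 groups, of which 86, in 9 tables, come with deposited tables of whole-number counts, 1 row per gene symbol. The submitters' processing notes name FastQC 0.12.1, Trim Galore, STAR 2.7.11b, Subread, DESeq2 and build mm39. The labels' protocols name 2 library kits and 2 sequencers. Which library used which, and the strand setting, are not given in the sources used here. Columns headed TBLC_S were read as TBLC_PlaB-.

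Each table was fitted whole with edgeR 4.0.16 in R 4.3.3 (limma 3.58.1): filterByExpr, TMM, robust quasi-likelihood F tests, Benjamini-Hochberg adjustment over all genes tested, threshold 0.05. CPM are counts over the TMM-scaled library total. No spike-in fixes the scale of the actinomycin D slopes. Labels do not say whether the 2 replicates of a group were separate cultures, so p-values measure the spread between these samples only, which may be technical, and n = 2 limits all of them. Replicate numbers were not taken to pair libraries: deviations of same-numbered libraries correlated over 0.1 for 8 of 28 pairs of groups in the siVirma course, 6 of 28 in the siIgf2bp3 course and no pair elsewhere. DESeq2 1.42.0, other scalings and each library left out were alternatives.

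The genes and the companion lists were chosen with earlier results of these data known. The rule named genes past 2-fold in the state and IP comparisons, up to 8 called genes in each other comparison, and Zfp57, Zfp445 and Trim28, with per-library values. In the actinomycin D comparisons some are given by log2 difference alone, and other genes, such as Peg3 in siVirma, were named after their values were seen. Lists of m6A-IP peaks were not used here.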

Additional observations from a re-analysis of the deposited data

Results flagged for a closer look

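In the actinomycin D courses, the difference between 2 arms was compared at 0 h and over 1 to 3 h by an interaction term (edgeR, Benjamini-Hochberg adjusted over all genes). Values are the difference over 1 to 3 h minus that at 0 h on the log2 scale, for genes called with opposite signs in the 2 readings.

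Between the libraries labelled siIgf2bp3 and siNC2, the change was positive for Phlda2 (0.96), Cdkn1c (0.67), Ascl2 (1.15), Slc22a18 (1.04), Tssc4 (1.25), Commd1 (1.68), Mcts2 (0.65), Snrpn (0.59) and Trim28 (0.42). It was negative for Zim1 (-2.56), Plagl1 (-1.54), Peg3 (-1.52), Zfp445 (-1.47), Igf2r (-1.34), Zdbf2 (-1.07), Peg10 (-1.03), Impact (-0.97), Ube3a (-0.97), Grb10 (-0.96), Sgce (-0.76), Copg2 (-0.73) and Mest (-0.35).

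Between siVirma and siNC1, the change was positive for Slc22a18 (1.42), Commd1 (1.31), Tssc4 (0.95), Mcts2 (0.54) and Snrpn (0.42). It was negative for Zfp445 (-1.11), Peg3 (-1.07), Impact (-0.79), Peg10 (-0.76), Zdbf2 (-0.72), Ube3a (-0.67), Igf2r (-0.65), Zrsr1 (-0.59), Grb10 (-0.46) and Copg2 (-0.44). Between diffTBLC and TBLC, Tssc4 (-0.46) was the one gene of the 32 with such a change, and opposite signs were found for 0.857% of all 14463 genes.

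The siNC2 and siNC1 arms changed in 73.1% and 67% of all genes between 0 and 1 h and in 61.4% and 57.2% between 1 and 2 h. Opposite signs were also found for 52% of all genes between the libraries labelled siIgf2bp3 and siNC2 and for 28.3% between siVirma and siNC1. The part of the control libraries in the values was not tested.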

How the results depend on the processing

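With each library left out in turn, the number of genes called ranged from 21 to 26 for PrE-T against EPI-T and for PrE-T against TBLC, 19 to 22 for EPI-T against TBLC, 23 to 25 for diffTBLC against TBLC at 0 h, 5 to 7 for siVirma and 2 to 2 for the libraries labelled siMettl3 against siNC, 21 to 22 for the Igf2bp3 IP and 28 to 29 for the Ythdf2 IP. For slopes it was 21 to 27 in diffTBLC, 26 to 28 in TBLC, 1 to 7 for their difference, 0 to 1 for TBLC_PlaB-, 0 to 17 for siVirma and 21 to 25 for libraries labelled siIgf2bp3. For TBLC_PlaB- it was 0 to 3 at 0 h and 9 to 13 over 1 to 3 h, for siVirma 21 to 24 and 27 to 29, and for libraries labelled siIgf2bp3 23 to 26 and 25 to 27.

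Counts of genes called moved by over 1.5 times as follows. For siVirma against siNC, 5 with no filter and 3 with DESeq2. For TBLC_PlaB- at 0 h, 1 with no filter, 0 with DESeq2 and 1 with the compared libraries only. For TBLC_PlaB- over 1 to 3 h, 8 with DESeq2, 3 at 2 h alone and 7 at 3 h alone. At 2 h alone, 17 for siVirma and 7 for libraries labelled siIgf2bp3 over 1 to 3 h. For the slope of diffTBLC minus TBLC, 0 with ribosomal protein scaling, 16 without 0 h and 13 for 3 h against 0 h. For the TBLC_PlaB- slope, 1 with DESeq2, 10 without 0 h and 2 for 3 h against 0 h. For the siVirma slope, 0 with library totals, no filter, ribosomal protein scaling or without 0 h, 11 with DESeq2, 24 for 3 h against 0 h and 1 with the replicate block. For the slope of libraries labelled siIgf2bp3, 0 without 0 h. The block also ended the slope calls of Zfp57 and Impact in diffTBLC minus TBLC (adjusted p = 0.0612 and 0.0566, edgeR) and moved no other count this far. Same-numbered libraries correlated with r of -0.116 to 0.328, over 0.1 for 8 of 28 pairs of groups in the siVirma course and 6 of 28 in the siIgf2bp3 course.

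Values that turned sign were these. With library totals: Trim28 -0.3069 (PrE-T against TBLC), -0.0016 (diffTBLC at 0 h) and -0.0091 (TBLC_PlaB- slope), and Zfp57 -0.1447 (EPI-T against TBLC), -0.053 (libraries labelled siIgf2bp3 over 1 to 3 h) and -0.0581 (slope, libraries labelled siIgf2bp3). With ribosomal protein scaling, slopes in TBLC of Trim28 -0.1677, Impact -0.1219, Grb10 -0.0867, Copg2 -0.0819, Snrpn -0.0658, Trappc9 -0.0631 and Gnas -0.0097, in diffTBLC of Trim28 -0.1419, Snrpn -0.0912, Gnas -0.0741 and Cdkn1c -0.0524, for TBLC_PlaB- of Trim28 -0.0429, for siVirma of Zfp57 -0.234 and Trim28 -0.2199, and for libraries labelled siIgf2bp3 of Zfp57 -0.5198, Trim28 -0.4113, Mcts2 -0.327, Dlk1 -0.2425, Slc22a18 -0.1932, Phlda2 -0.1826, Tssc4 -0.142 and Ascl2 -0.1087. Slopes without 0 h: Zfp57 0.0039 (diffTBLC minus TBLC), 0.0232 (TBLC_PlaB-) and -0.0427 (siVirma), Trim28 -0.0022 (TBLC_PlaB-) and Zfp445 0.0068 (siVirma). Zfp57 in libraries labelled siIgf2bp3 at 0 h was -0.1095 with no filter, -0.1216 with the compared libraries only, -0.0672 with RLE and -0.0671 with DESeq2. In TBLC_PlaB-, Zfp445 at 0 h was -0.0018 with no filter, and Trim28 over 1 to 3 h -0.0059 with the compared libraries only. The hours alone were chosen after seeing the data: in TBLC_PlaB-, Gnas -0.055 at 1 h, Peg3 -0.0235 and Zfp57 0.0442 at 2 h, Trim28 -0.0048 and Zfp445 -0.1921 at 3 h, and at 2 h Trim28 -0.0623 in siVirma and -0.0356 and Zfp57 -0.0174 in libraries labelled siIgf2bp3. With 1 library left out, ranges that crossed 0 were -0.0489 to 0.0855 for Zfp445 in siMettl3, -0.0313 to 0.0066 for Zfp57 in diffTBLC at 0 h, -0.0125 to 0.0034 for Zfp57 and -0.03 to 0.0391 for Zfp445 in TBLC_PlaB- at 0 h, -0.0019 to 0.0106 for the TBLC_PlaB- slope of Trim28, and -0.0435 to 0.0381 for Zfp57 in libraries labelled siIgf2bp3 at 0 h. The cause of these changes was not tested.

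Of the values of single genes under other settings, 1256 kept direction and side of the threshold, 90 lost a call, 17 gained one and 47 turned sign, and with 1 library left out 1358, 126, 2 and 12. A lone library was then taken to vary like the other groups. With 2 libraries a group, genes of a few CPM, such as Usp29, Zim1, Igf2, Ascl2, Slc22a18 and Nap1l5, rest on few counts.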

Other observations

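A further pair of TBLC2 libraries, with 5036913 and 5238475 counts, belongs to no comparison and was scaled on its own, so its levels stand alone. Phlda2 had 3.17 and 1.72 CPM and Cdkn1c 12.7 and 15.3 CPM, the growth restrainers that were high in EPI-T. Peg10 had 287 and 282 CPM, Plagl1 181 and 193 CPM, Mest 198 and 199 CPM and Gnas 368 and 374 CPM. Igf2r had 487 and 507 CPM and Zdbf2 272 and 296 CPM. Of the regulators, Zfp57 had 488 and 521 CPM, Zfp445 148 and 155 CPM and Trim28 1328 and 1284 CPM. The fibroblast and feeder markers summed to 4225 to 4367 CPM in these libraries.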
